A study of Homo sapiens with 12 samples.

Results

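The 10 genes described here are known transcriptional targets of the hypoxia-inducible factors (HIF). They were measured in HEK293, a human embryonic kidney cell line, with and without iron loading, and HIF itself was not tested. The genes are BHLHE40, VEGFA, SLC2A1, PDK1, BNIP3, NDRG1, ADM, ANKRD37, LDHA and PGK1, taken by symbol from a deposited gene table of 36459 symbols. All 10 were in the table, and all 10 were among the 14209 genes that passed the filter on low counts. The 12 libraries fall into 4 groups of 3: cells given ferric ammonium citrate (FAC, an iron salt), oleic acid + FAC, oleic acid (a monounsaturated fatty acid) alone, and vehicle. The study used FAC to induce ferroptosis, an iron-dependent form of cell death, and asked how oleic acid supplementation alters that response. The sources used here do not give doses or treatment times, and no group received ammonium and citrate without iron. The labels number the replicates but do not call them separate cultures, so the p-values measure the spread between these libraries, which may be technical.

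HIF is a pair of proteins, an unstable alpha subunit (HIF1A or EPAS1) and a stable partner (ARNT). In cells with oxygen, the prolyl hydroxylases EGLN1, EGLN2 and EGLN3 mark the alpha subunit for destruction by VHL, and HIF1AN, an asparaginyl hydroxylase, lowers its activity. These hydroxylases need iron as well as oxygen, so iron chelators stabilise HIF, and the abundance of HIF alpha is set largely on the protein, which these data do not measure. The targets serve glucose uptake and glycolysis (SLC2A1, PGK1, LDHA, PDK1), blood vessel growth and tone (VEGFA, ADM), mitochondrial removal (BNIP3) and regulation of transcription and stress (BHLHE40, NDRG1, ANKRD37).

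HIF binds a short core, ACGTG or GCGTG, read on either strand. RefSeq promoters on GRCh38.p14, from 250 bases before to 50 bases after the gene start, were matched by symbol for 8 of the 10 genes. The other members are VEGFA and NDRG1. Where a gene has several listed promoters, a match in any of them was counted. ACGTG was present in 6 of 8 genes (75%), against 24.9% of all 27305 RefSeq genes counted the same way and 21.4% of their 35116 promoters. GCGTG was present in 5 of 8 (62.5%), against 40.6% of genes and 36.5% of promoters. CACGTG, an E-box that overlaps ACGTG on both strands and that BHLHE40 and other basic helix-loop-helix proteins bind, was present in 4 of 8 (50%), against 8.77% of genes and 7.26% of promoters. The stretches here come from the promoters of the member that changed most with FAC (BHLHE40), of the glycolytic pair with the highest levels (LDHA and PGK1), and of members that hold several matches but did not pass the test (BNIP3, ANKRD37 and PDK1). Each runs 5′ to 3′ on the strand of its gene, and capitals mark ACGTG or GCGTG on either strand, so CACGT and CACGC are matches on the opposite strand.
BHLHE40, chr3:4979187-4979209, plus strand: tccaaCACGTGagactcatgtga
BHLHE40, chr3:4979251-4979279, plus strand: ggcagtggccagACGTGcctggagtcaca
BHLHE40, chr3:4979276-4979304, plus strand: cacagggtagaaCACGTagctccaaccca
LDHA, chr11:18394366-18394395, plus strand: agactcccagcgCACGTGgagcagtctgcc
LDHA, chr11:18394471-18394499, plus strand: actcaCACGTGggttcccgCACGTccgcc
PGK1, chrX:78104029-78104058, plus strand: ggttcgcgGCGTGccggACGTGacaaacgg
PGK1, chrX:78104053-78104081, plus strand: aaacggaagccgCACGTctcactagtacc
BNIP3, chr10:131982041-131982069, minus strand: gcgCACGCgccgCACGTGccaCACGCacc
ANKRD37, chr4:185396676-185396705, plus strand: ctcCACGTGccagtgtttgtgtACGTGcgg
PDK1, chr2:172556065-172556089, plus strand: ctgcccgcCACGTccctCACGTacc

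These matches are letters in a window and not measured binding sites. The gene with the largest FAC change and genes that did not pass the test both hold them. SLC2A1 and ADM held a single GCGTG each and no ACGTG. In GENCODE 29, the transcript with most of the BHLHE40 counts starts 321 bases upstream of the RefSeq start, so the printed BHLHE40 stretches lie inside that transcript. The same holds for ANKRD37 (357 bases upstream) and for the second RefSeq start of PDK1 (121 bases upstream). The leading transcript starts 1715 bases downstream of the RefSeq start used here for LDHA and 193509 bases upstream of that for PGK1. Where a gene has several RefSeq starts, the printed stretches come from the promoter with most ACGTG matches. LDHA has another RefSeq start, with its leading transcript starting only 73 bases upstream of it. The promoter at that start held 0 ACGTG and 1 GCGTG.

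The libraries held 14098216 to 18717397 counts. All 9 listed embryonic kidney and HEK293 markers passed the filter on low counts, with NEFL at 83.9 to 120 CPM and VIM at 583 to 1427. So did 2 of 5 fibroblast markers (COL1A1 and PDGFRA), 1 of 5 endothelial (ESAM) and 2 of 5 blood markers (HBA1 and CD68). None of 4 hepatocyte markers passed it. The blood marker PTPRC stayed at or below 0.260 CPM and the hepatocyte marker ALB at or below 0.170. CPM are counts relative to the size of the library, scaled by trimmed mean of M values. TFRC, the transferrin receptor, whose mRNA is broken down when cell iron is high, served as the check of iron loading. It had 16.8 to 22.1 CPM with FAC and averaged 14.6 ± 1.57 with oleic acid + FAC (SD, n = 3), against 130, 122 and 57.8 with oleic acid and 113, 134 and 119 with vehicle. Replicate 3 of the oleic acid + FAC group and replicate 3 of the oleic acid group stood apart, at 62.0 and 40.8 on the first principal component against -24.7 to 9.69 for the other 10 libraries. Short transcripts were relatively high in both, and the oleic acid + FAC library of that pair held 12.1% mitochondrial mRNA against 3.33% to 7.50% elsewhere. BHLHE40 is therefore given below with and without them.

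Per length, the members spanned the range from strongly to barely expressed. In vehicle cells LDHA, which converts pyruvate to lactate, averaged 1269 ± 67.7 TPM (counts per length, set to a common total), PGK1 299 ± 11.7, NDRG1 219 ± 21.0 and SLC2A1 42.8 ± 4.27 (SD, n = 3 each). BNIP3 followed at 21.5 ± 2.06 TPM. Below it, VEGFA at 17.0 ± 2.63, PDK1 at 16.6 ± 2.65, BHLHE40 at 14.7 ± 3.85 and ADM at 13.8 ± 1.83 TPM did not differ beyond their spread. ANKRD37 was lowest at 1.57 ± 0.262 TPM and had only 7 to 23 counts per library. With FAC, BHLHE40 stood at 30.8 ± 1.47 TPM, above BNIP3 at 23.3 ± 1.06 TPM in the same cells, so its place in the order moved up.

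BHLHE40 rose with FAC, in cells without and with oleic acid, and no other member passed the test in the reported fit, which holds no replicate term. Of all genes tested, 1.19% passed in FAC against vehicle, 2.21% in oleic acid + FAC against oleic acid and 8.76% in the FAC effect averaged over both fatty acid states (either direction). With the replicate number as a block, NDRG1 and SLC2A1 also passed on average, as given below. BHLHE40, on chromosome 3 from 4979116 to 4985323 (GRCh38, plus strand), encodes a basic helix-loop-helix repressor of transcription that acts in the circadian clock and in the response to hypoxia. It had 63.5, 54.9 and 64.4 CPM with FAC, against 28.2, 20.8 and 36.1 CPM with vehicle. It had 59.5, 62.7 and 69.9 CPM with oleic acid + FAC, against 32.6, 26.7 and 36.4 CPM with oleic acid alone. All 6 libraries with FAC lay above all 6 without, and no values overlapped. In bulk RNA, more cells expressing a gene and more RNA per cell cannot be told apart. The FAC against vehicle fold change was 2.14 (log2 1.10, SE 0.18, edgeR quasi-likelihood adjusted p = 0.0125). In cells that all received oleic acid it was 2.01 (log2 1.01, SE 0.18, adjusted p = 0.0145 by the same test). Averaged over both fatty acid states it was 2.08, with a 95% interval of 1.72 to 2.51 (adjusted p = 0.000431 by the same test). BHLHE40 ranked 85 of 14209 genes by the averaged log2 fold change and 50 by p. Without the pair of libraries that stood apart the averaged log2 fold change was 1.08 (edgeR adjusted p = 0.000197). Each comparison on its own lost the call when certain single libraries were left out. FAC against vehicle came to adjusted p = 0.0639 without the first FAC library, 0.0628 without the third and 0.0539 without the second vehicle library (edgeR). Oleic acid + FAC against oleic acid came to 0.0631 without its second library, 0.0605 without the first oleic acid library and 0.0676 without the second (edgeR). Fitting only these groups gave 0.0725 for the same log2 fold change of 1.01 (edgeR). The averaged effect passed in each fit with a single library left out.

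**Figure D1:**
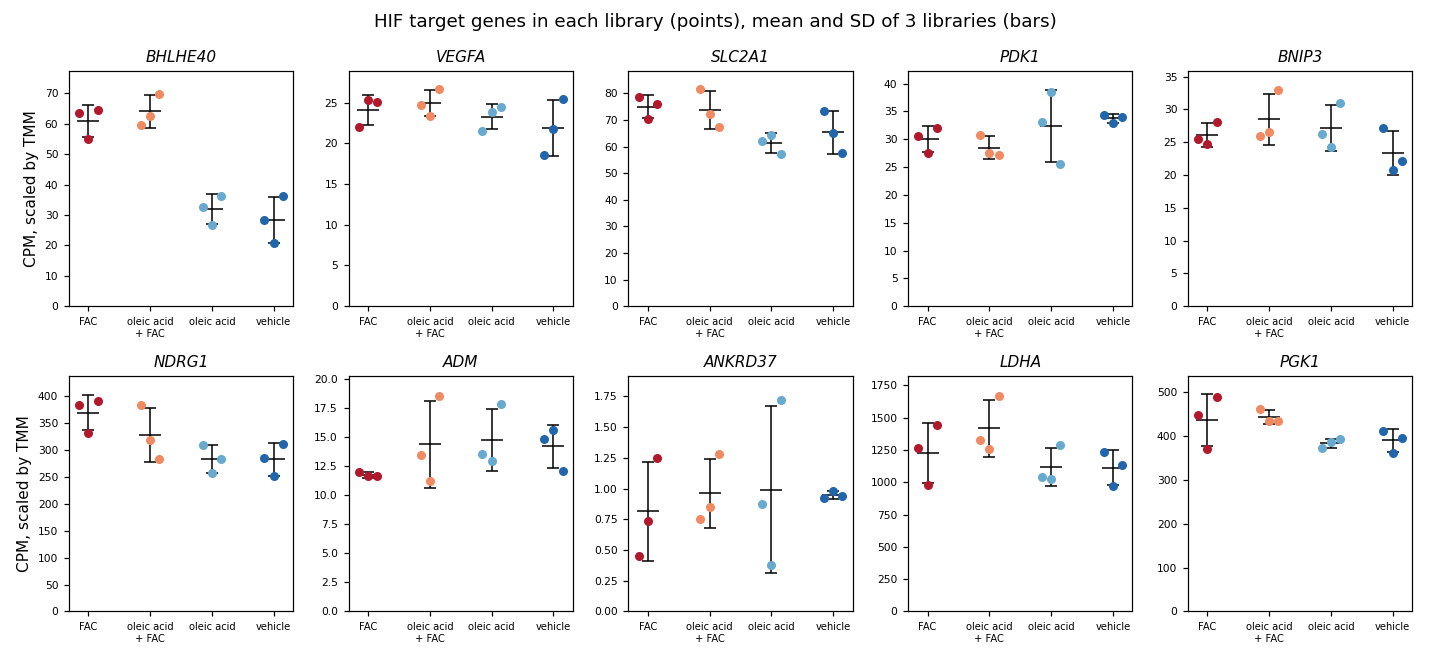
Levels of the 10 HIF target genes in each of the 12 libraries, as CPM scaled by trimmed mean of M values on a linear axis that starts at 0, with group means and SDs (n = 3). BHLHE40 separates the libraries with FAC (54.9 to 69.9 CPM) from those without (20.8 to 36.4 CPM), and for each of the other 9 members libraries with FAC overlap libraries without it.

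The members were chosen with earlier results of these data known, so the shares given here are not a test of enrichment. Over the list, 1 of 10 members was called higher and 0 lower in FAC against vehicle, where 0.457% of all genes tested were called higher and 0.732% lower (edgeR, adjusted p under 0.05). With oleic acid in both groups the count was again 1 higher and 0 lower, beside 0.760% and 1.45% of all genes. In the FAC effect averaged over both states it was 1 and 0, beside 3.27% and 5.48%. With the replicate number as a block (edgeR), 3 members were called higher on average (BHLHE40, NDRG1 and SLC2A1) among 2211 genes in place of 1244. The block left the member count at 1 in the separate comparisons, while the genes called numbered 431 in place of 169 in FAC against vehicle and 740 in place of 314 with oleic acid in both groups. The median log2 fold change of the 10 members was 0.15 in each of these comparisons, against 0.01, 0.00 and 0.00 over all genes tested, and 7 of 10 members were positive each time. By the cruder measure of libraries that do not overlap, BHLHE40 and NDRG1 lay above in FAC against vehicle (10.0% of all genes did) and PDK1 and ADM below (12.4%), so 4 of 10 members separated beside 22.4% of all genes. With oleic acid present, BHLHE40, SLC2A1 and PGK1 lay above (7.85% of all genes) and none below (10.3%), or 3 of 10 beside 18.1%. Over 6 libraries against 6, BHLHE40 alone separated, where 6.84% of all genes did (2.80% above and 4.04% below).

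**Figure D2:**
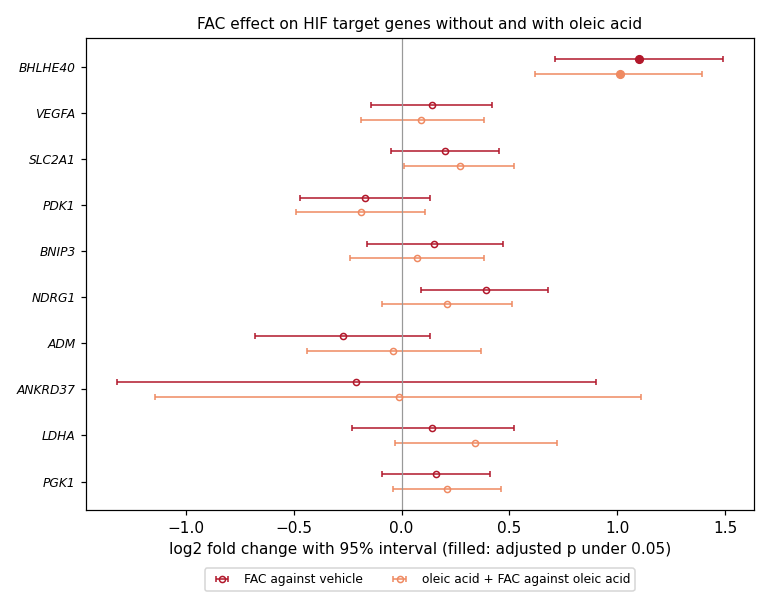
Log2 fold change of each HIF target gene with FAC, without oleic acid (FAC against vehicle, dark) and with it (oleic acid + FAC against oleic acid, light), with 95% intervals from the edgeR fit and filled symbols for adjusted p under 0.05. BHLHE40 lies at 1.10 and 1.01, and the other 9 members lie between -0.27 and 0.39.

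Among the genes of glucose uptake and glycolysis, none passed the test in the reported fit. SLC2A1, the glucose transporter GLUT1 on chromosome 1, had 78.7, 70.3 and 76.1 CPM with FAC, against 73.3, 65.1 and 57.5 with vehicle. With oleic acid + FAC it had 81.5, 72.3 and 67.3 CPM, against 62.0, 64.5 and 57.3 with oleic acid. The groups overlapped in the first pair and separated in the second. Averaged, its fold was 1.18 (95% interval 1.04 to 1.33, edgeR unadjusted p = 0.0146, adjusted p = 0.104). With the replicate number as a block it passed, at an adjusted p of 0.0385 and a log2 fold change of 0.23 (edgeR).

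PGK1, the phosphoglycerate kinase that makes ATP in glycolysis, lies on the X chromosome. It had 447, 371 and 488 CPM with FAC, against 412, 361 and 396 with vehicle. It had 461, 434 and 435 CPM with oleic acid + FAC, against 372, 385 and 393 with oleic acid. The averaged fold was 1.14 (95% interval 1.01 to 1.29, edgeR adjusted p = 0.194). LDHA had 1262, 981 and 1443 CPM with FAC, against 1235, 969 and 1134 with vehicle. In cells with oleic acid it had 1331, 1257 and 1669 CPM with FAC added, against 1042, 1029 and 1286 without. The groups overlapped in both pairs, and the averaged fold was 1.18 (95% interval 0.986 to 1.42, edgeR adjusted p = 0.251).

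PDK1, a kinase that inhibits pyruvate dehydrogenase in the mitochondrion, pointed the other way. It had 30.6, 27.5 and 32.0 CPM with FAC, against 34.3, 32.9 and 34.0 with vehicle. With oleic acid + FAC it had 30.8, 27.6 and 27.1 CPM, against 33.1, 38.5 and 25.6 with oleic acid. The averaged fold was 0.884 (95% interval 0.763 to 1.02, edgeR adjusted p = 0.298). LDHA, PGK1 and BNIP3 have processed pseudogenes, so their values are uncertain as far as the authors' counting divided shared reads.

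Of the genes with other roles, NDRG1 came closest to BHLHE40. NDRG1, a stress-responsive gene also known to be induced by iron chelators, lies on chromosome 8. It had 383, 332 and 392 CPM with FAC, against 286, 251 and 311 with vehicle. Its level was 383, 318 and 283 CPM with oleic acid + FAC, against 309, 258 and 283 with oleic acid. The groups separated in the first pair and overlapped in the second. Its fold was 1.31 in FAC against vehicle (95% interval 1.06 to 1.60, edgeR adjusted p = 0.241) and 1.23 on average (1.06 to 1.42, adjusted p = 0.0758). With the replicate block the averaged log2 fold change was 0.30 at an adjusted p of 0.0256 (edgeR), and without both libraries that stood apart it was 0.35 at 0.0213.

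VEGFA, the secreted growth factor for blood vessels, had 22.0 to 25.3 CPM with FAC and 23.4 to 26.6 with oleic acid + FAC, against 21.5 to 24.5 with oleic acid and 18.5 to 25.4 with vehicle. All of its groups overlapped, and the averaged fold of 1.08 had a 95% interval of 0.944 to 1.24 (edgeR adjusted p = 0.481). BNIP3, a mitochondrial receptor for mitophagy, ranged from 24.7 to 32.9 CPM with FAC and from 20.8 to 31.0 CPM without it over both fatty acid states. Its averaged fold was 1.08 (95% interval 0.928 to 1.26, edgeR adjusted p = 0.549). ADM, which encodes the vasodilator peptide adrenomedullin, averaged 11.7 ± 0.207 CPM with FAC, against 14.2 ± 1.84 CPM with vehicle (SD, n = 3 each). In cells with oleic acid it had 13.4, 11.2 and 18.5 CPM with FAC added, against 13.5, 12.9 and 17.8 without. Its libraries separated in the first pair and overlapped in the second, and the averaged fold was 0.898 (95% interval 0.735 to 1.10, edgeR adjusted p = 0.522). ANKRD37, an ankyrin repeat protein, had 0.376 to 1.72 CPM over all 12 libraries, where a count of 0 would allow up to 0.158 to 0.224 CPM (3 counts, counting error only). At this depth its averaged fold of 0.924 had a 95% interval of 0.536 to 1.59 (edgeR adjusted p = 0.889).

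The 95% intervals of the averaged FAC effect give the changes compatible with these libraries in the reported fit. They are not detection limits. On the log2 scale, the upper 95% bound of the averaged FAC effect ran from 0.03 (PDK1) to 0.51 (NDRG1 and LDHA) for 8 of the other 9 members and was 0.67 for ANKRD37, each below the lower bound of 0.78 for BHLHE40. The lower 95% bounds of the same 9 members ran from -0.90 (ANKRD37), -0.44 (ADM) and -0.39 (PDK1) up to 0.09 (NDRG1). The separate comparisons did not keep BHLHE40 apart in this way. In FAC against vehicle the upper bound was 0.90 for ANKRD37, above the lower bound of 0.71 for BHLHE40. Between oleic acid + FAC and oleic acid the upper bounds were 1.11 for ANKRD37 and 0.72 for LDHA, above 0.62 for BHLHE40.

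Oleic acid did not change any member past the test. With oleic acid + FAC against FAC the members' log2 fold changes ran from -0.17 (NDRG1) to 0.29 (ADM), and in oleic acid against vehicle from -0.09 (SLC2A1) to 0.21 (BNIP3). Among all genes, 0 were called in both comparisons by edgeR, and DESeq2 called 1 and 0. At an unadjusted edgeR p under 0.05 there were 576 and 118 of 14209 genes. Both are below the share of about 0.05 that no effect would give, so these p-values ran high. The 0 calls therefore do not show that oleic acid had no effect. For all 10 members the groups overlapped in both. In oleic acid + FAC against FAC 10.5% of all genes did not overlap (4.61% above and 5.92% below), and in oleic acid against vehicle 3.60% did not (1.93% above and 1.67% below). BHLHE40 had a log2 fold change of 0.07 with oleic acid + FAC against FAC (95% interval -0.31 to 0.45) and of 0.16 with oleic acid against vehicle (-0.22 to 0.55). These comparisons share libraries with the FAC comparisons above.

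Whether oleic acid altered the FAC effect itself was tested as an interaction. For BHLHE40 the difference of the log2 FAC effects, with oleic acid minus without it, was -0.09 (95% interval -0.64 to 0.45). That interval holds the differences compatible with these libraries. It is not a detection limit, because a call also had to pass the adjustment over all genes tested. For the other members the difference ran from -0.18 (NDRG1) to 0.24 (ADM), and each had an edgeR adjusted p of 1.00. Over all genes 0 were called by edgeR and 0 by DESeq2, with 116 of 14209 at an unadjusted edgeR p under 0.05. With no effect a share of about 0.05 would fall there, so these p-values ran high. The 0 calls therefore do not show that the interaction is absent, and the cause of the high p-values was not tested.

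The 10 members did not move as a block from library to library. Over the 12 libraries, the 45 pairs of members had a median Pearson r of 0.21 for log2 CPM, with a range from -0.59 (BHLHE40 and PDK1) to 0.81 (LDHA and PGK1), and 28 pairs were positive. Without the libraries that stood apart the median was 0.12 over 10 libraries. The range was then from -0.80 (BHLHE40 and ADM) to 0.98 (LDHA and PGK1). BHLHE40 and NDRG1 had 0.91 over these 10 libraries, and 0.45 over all 12 as deviations from group means. All pairs share library depth, scaling and the FAC grouping, so these values are descriptions.

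Across the 12325 genes whose mean log2 CPM reached 1, the gene most like BHLHE40 over the 12 libraries was RNF168, a ubiquitin ligase of the DNA damage response (Pearson r 0.97, Spearman rho 0.94, and Pearson r 0.97 over 10 libraries). RNF168 was also called higher with FAC on average, with a log2 fold change of 0.51 (edgeR adjusted p = 0.00102). The gene most like LDHA was MDH1, the cytosolic malate dehydrogenase (0.98), and the gene most like PGK1 was XRCC6, a DNA repair protein (0.95). For NDRG1 it was EFL1 (0.95), for SLC2A1 HHAT (0.93), for PDK1 GFPT1 (0.93), for BNIP3 CMC1 (0.95) and for VEGFA PPIL6 (0.87). For ADM it was AC006001.3 (0.95) and for ANKRD37 AC234031.1 (0.96). Apart from RNF168, none of these genes was called with FAC on average. Each value is the highest r among all candidates over only 12 libraries, and such a maximum can be high for unrelated genes. All candidates also share library depth, scaling and the FAC grouping, so these values are descriptions and were not tested.

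The transcript table showed which annotated forms carried the counts. Of the BHLHE40 counts, 99.2% fell on a single transcript, ENST00000256495.3, of 3473 bases. That transcript averaged 60.6 ± 5.84 CPM with FAC and 63.9 ± 3.64 CPM with oleic acid + FAC, against 31.7 ± 4.48 CPM with oleic acid and 28.6 ± 7.61 CPM with vehicle (SD, n = 3 each). Its averaged log2 fold change was 1.05 (SE 0.14, edgeR adjusted p = 0.0177 over 51464 transcripts). It was the only one of 40 member transcripts tested to be called in the averaged effect, where 0.299% of all transcripts were called. None of the 40 was called in FAC against vehicle (0.00777% of transcripts) or in oleic acid + FAC against oleic acid (0.0117%), where the BHLHE40 transcript had adjusted p-values of 0.274 and 0.223 (edgeR).

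Other members were divided among several transcripts. PDK1 counts were split between ENST00000282077.7, of 14193 bases (47.2%), and ENST00000410055.5, of 2990 bases (42.4%). The averaged log2 fold change was -0.33 for the long form (SE 0.13, edgeR adjusted p = 0.519) and 0.01 for the short form (SE 0.14, adjusted p = 1.00), and the difference between the forms was not tested. SLC2A1 had 65.3% on ENST00000630287.2, with an averaged log2 fold change of 0.30 (SE 0.11), and 34.3% on ENST00000426263.8, with 0.08 (SE 0.24). VEGFA had 39.3% and 35.3% on its leading pair, with 0.13 (SE 0.43) and 0.20 (SE 0.32).

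Of the genes that control HIF itself, 1 passed the test with FAC. Of 18 regulators, 17 were tested, and 0 were called higher and 1 lower in the averaged FAC effect, beside 3.27% and 5.48% of all genes tested, with a median log2 fold change of -0.01 against 0.00 over all genes. The gene called was HIF1AN, the asparaginyl hydroxylase that restrains HIF. It had 57.0, 56.2 and 60.0 CPM with FAC, against 76.6, 88.1 and 88.9 with vehicle. HIF1AN had 57.4, 54.8 and 48.2 CPM with oleic acid + FAC, against 84.5, 93.2 and 71.7 with oleic acid. The 6 libraries with FAC all lay below the 6 without. Its averaged fold was 0.662 (95% interval 0.583 to 0.752, edgeR adjusted p = 0.00116), and it passed in 21 of 21 alternative fits. Taken alone, FAC against vehicle gave an adjusted p of 0.0448 and passed in 10 of 22 alternatives, and oleic acid + FAC against oleic acid gave 0.0202 and passed in 17 of 22 (edgeR in the main analysis).

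VHL, the ligase subunit that takes hydroxylated HIF to destruction, had 25.4, 43.7 and 27.6 CPM with FAC, against 31.9, 48.1 and 41.9 with vehicle. VHL averaged 19.1 ± 3.85 CPM with oleic acid + FAC (SD, n = 3), against 41.3, 41.5 and 23.3 with oleic acid. Both libraries that stood apart gave the lowest VHL of their groups. The averaged log2 fold change was -0.61 (SE 0.18, edgeR adjusted p = 0.0585). It passed in 8 of 21 alternative fits, such as without those libraries, at -0.64 and 0.0129, and without the filter on low counts, at -0.61 and 0.0231. In FAC against vehicle VHL passed in 0 of 22 alternatives. With oleic acid in both groups its log2 fold change was -0.89 (SE 0.26, edgeR adjusted p = 0.108), and with the replicate block -0.87 at 0.0341. There it passed in 6 of 22 alternatives. The averaged log2 fold changes were 0.05 for HIF1A, 0.15 for EPAS1, -0.01 for ARNT, -0.08 for EGLN1, -0.11 for EGLN2 and -0.14 for EGLN3, and each edgeR adjusted p was 0.409 or above. The sign for HIF1A turned to -0.04 with library totals as the scale, and that for ARNT to 0.01 with relative log expression scaling. EGLN3, itself a HIF target, had 9.84 to 12.2 CPM with FAC and oleic acid + FAC together, against 9.43 to 14.5 CPM in the libraries without FAC.

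**Figure D3:**
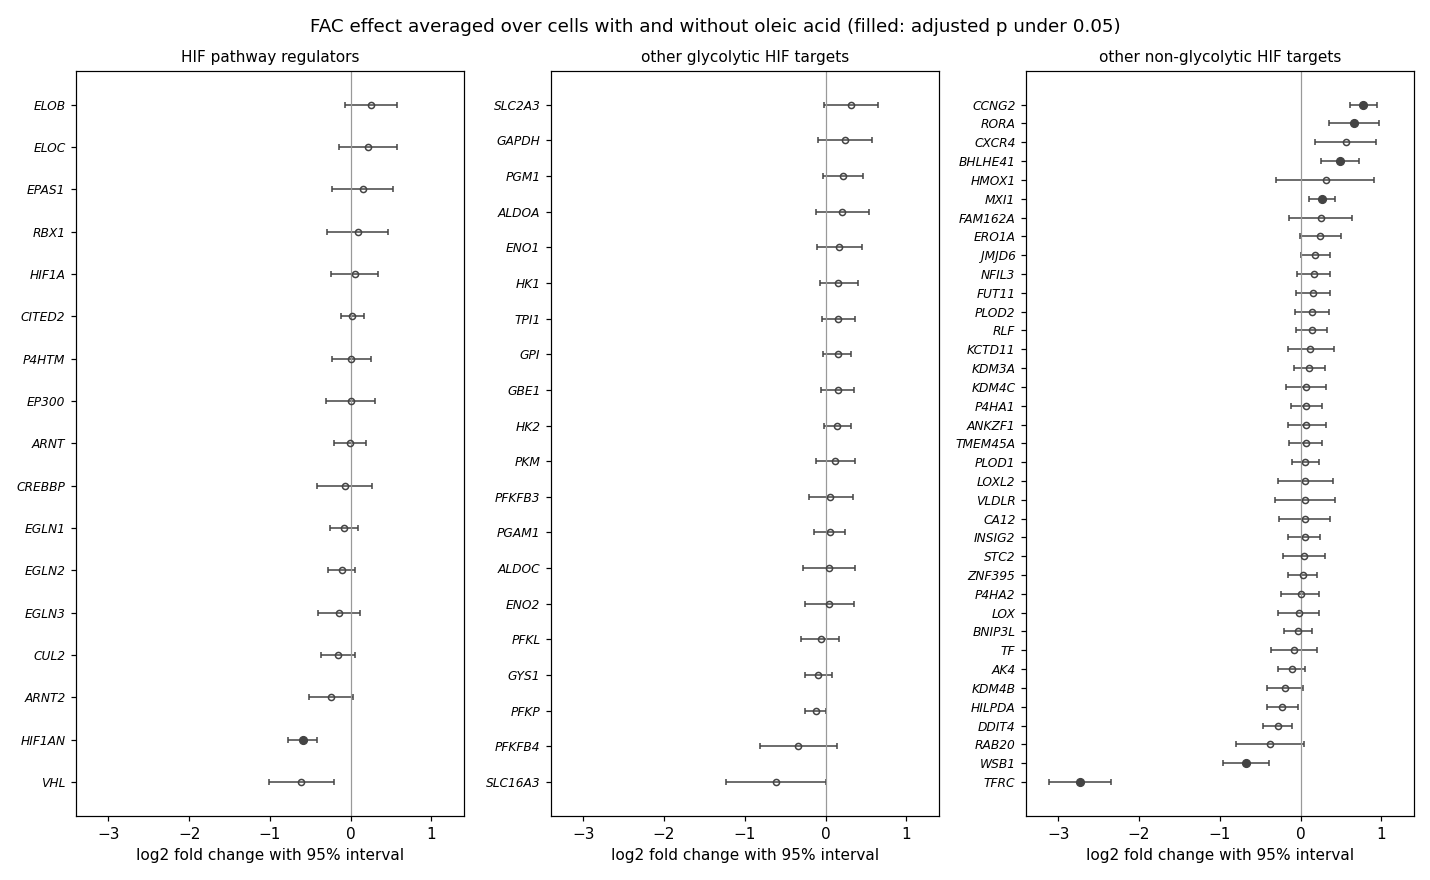
Averaged log2 fold change with FAC, with 95% intervals from the edgeR fit, for every tested regulator of HIF (17), other glycolytic target (20) and other non-glycolytic target (37), ordered by size, with filled symbols for adjusted p under 0.05. HIF1AN at -0.59 is the only filled regulator, no glycolytic target is filled, and TFRC at -2.73 lies farthest from 0.

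The other glycolytic targets of HIF followed SLC2A1, LDHA and PGK1 in that none passed the test in the reported fit. Their results in the alternative fits were not examined. All 20 were tested, and 0 were called in either direction in FAC against vehicle, in oleic acid + FAC against oleic acid or on average, beside 1.19%, 2.21% and 8.76% of all genes tested. On average 15 of 20 were positive (7204 of 14209 over all genes), with a median log2 fold change of 0.13 against 0.00 for all genes, and 0 had an unadjusted edgeR p under 0.05 (3344 over all genes). These genes share library composition and are not independent.

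Of 45 other targets, outside glycolysis, 37 were tested, and 4 were called higher and 2 lower in the averaged FAC effect, beside 3.27% and 5.48% of all genes tested. This list too was chosen with earlier results of these data known, so the shares are not a test of enrichment. TFRC, among those lower, was also the check of iron loading. CCNG2, a cyclin linked to growth arrest, had 28.2, 31.1 and 26.9 CPM with FAC, against 16.7, 17.4 and 17.9 with vehicle. CCNG2 averaged 32.0 ± 2.60 CPM with oleic acid + FAC, against 17.9 ± 0.608 CPM with oleic acid (SD, n = 3 each), and no library with FAC overlapped one without. Its averaged fold was 1.72 (95% interval 1.53 to 1.93, edgeR adjusted p = 0.000122), and it was also called in FAC against vehicle (adjusted p = 0.00820) and in oleic acid + FAC against oleic acid (adjusted p = 0.00257). Leaving out the second vehicle library gave an adjusted p of 0.0539 in FAC against vehicle, and fitting only the groups compared gave 0.0798 in the other comparison.

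BHLHE41, the paralogue of BHLHE40 and a repressor in the same clock circuit, averaged 11.6 ± 0.992 CPM with FAC and 12.4 ± 1.47 with oleic acid + FAC, against 8.45 ± 0.944 with oleic acid and 8.60 ± 1.13 with vehicle (SD, n = 3 each). All 6 libraries with FAC lay above all 6 without, and the averaged fold was 1.41 (95% interval 1.19 to 1.66, edgeR adjusted p = 0.0155). Between oleic acid + FAC and oleic acid its log2 fold change was 0.56 (edgeR adjusted p = 0.0912), with the replicate block 0.56 at 0.0204. RORA, a nuclear receptor that activates clock genes, averaged 10.2 ± 1.31 CPM with FAC and 8.34 ± 0.237 with oleic acid + FAC, against 5.76 ± 1.67 with oleic acid and 5.84 ± 0.448 with vehicle. Its averaged fold was 1.58 (95% interval 1.28 to 1.96, edgeR adjusted p = 0.0130). MXI1, an antagonist of MYC, had a smaller averaged fold of 1.20 (95% interval 1.08 to 1.34, edgeR adjusted p = 0.0410). With library totals as the scale, the adjusted p was 0.0501 for BHLHE41, 0.0607 for RORA and 0.186 for MXI1 (edgeR). MXI1 also missed the threshold when any of 9 single libraries was left out, at 0.0730 to 0.117.

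The targets that fell were TFRC and WSB1. TFRC, which HIF also activates, had an averaged fold of 0.150 (95% interval 0.115 to 0.196, edgeR adjusted p = 3.81e-06), the farthest from 1 among the HIF targets and regulators tested. WSB1, a ubiquitin ligase subunit, averaged 40.6 ± 10.8 CPM with FAC and 31.7 ± 3.08 with oleic acid + FAC, against 55.1 ± 7.74 with oleic acid and 59.6 ± 9.42 with vehicle (SD, n = 3 each). Its averaged fold was 0.627 (95% interval 0.515 to 0.764, edgeR adjusted p = 0.00734). With oleic acid in both groups it passed narrowly, at an adjusted p of 0.0461, and lost the call in 12 of 22 alternatives. CA9, often used as a marker of HIF activity, had 0 to 2 counts in every library and did not pass the filter on low counts.

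**Figure D4:**
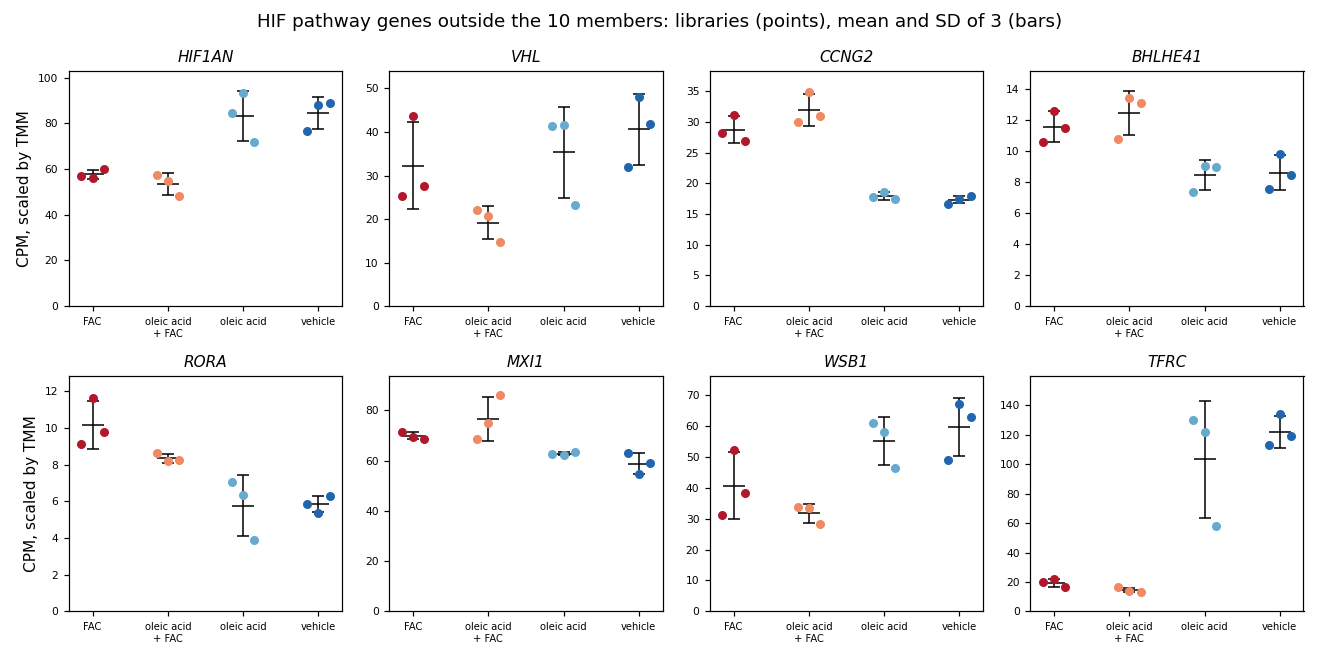
Levels of 8 HIF regulators and targets outside the 10 members in each of the 12 libraries, as CPM scaled by trimmed mean of M values on linear axes that start at 0, with group means and SDs (n = 3). CCNG2, BHLHE41, RORA and MXI1 are higher and HIF1AN and TFRC lower in every library with FAC than in every library without it, and VHL and WSB1 overlap between libraries with and without FAC.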

How the data were processed

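RNA was measured in 12 HEK293 libraries of poly-A RNA, prepared with an Illumina TruSeq kit per the labels' protocols; no source used here gives the strand handling. Besides the build GRCh38.p12 (hg38), kallisto 0.46.1 and the demultiplexer bcl2fastq 2.19 appear in the submitters' processing notes, as does sleuth 0.30.0. The authors deposited estimated counts per gene symbol (36459) and per transcript (188753), per the file headers, already whole, so rounding changed 0 values. Such estimates can divide reads wrongly among near-identical transcripts.

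From these, genes were kept by filterByExpr in edgeR 4.0.16 (R 4.3.3), leaving 14209, scaled by trimmed mean of M values, and tested with two-sided quasi-likelihood F tests in 1 fit of all 12 libraries with group means. Benjamini-Hochberg adjusted p-values cover all genes tested, with a threshold of 0.05. SEs are the log2 fold change over the root of F. TPM used GENCODE 29 transcript lengths, with 97.5% of counts matched. Alternatives used DESeq2 1.42.0, limma 3.58.1 (voom), other scalings, no filter, the replicate block, a correction for transcript length, fewer libraries and each library left out. The steps were also run on simulated counts that held no replicate pairing, no length trend and no libraries that stood apart. That run does not show how the fits behave with these features.

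Named were all members, the main HIF regulators, and genes of the other HIF lists past the test in a FAC comparison. The members and lists were chosen with earlier results of these data known. Replicate pairs in a group differed by more than counting noise (chi-square per degree of freedom 8.14 to 122).

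The labels share replicate numbers 1 to 3 across groups. Deviations from group means correlated between same-numbered libraries at 0.459, 0.296 and 0.612 for oleic acid + FAC and oleic acid, at 0.226, 0.221 and 0.340 for oleic acid + FAC and FAC, and at 0.165, 0.263 and 0.332 for FAC and oleic acid, so the numbers pair the libraries of these groups. The reported fit holds no replicate term, and the block is given beside results whose call it changes. The values were 0.243, 0.300 and -0.010 for FAC and vehicle and -0.048, 0.265 and -0.034 for oleic acid and vehicle. For oleic acid + FAC and vehicle they were -0.072, 0.227 and 0.016. With the replicate block, oleic acid + FAC against oleic acid called 740 genes in place of 314, and 1 member in both.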

Additional observations from a re-analysis of the deposited data

How the results depend on the processing

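The count of members called moved with the setting, always toward more genes that were higher with FAC or toward none. In FAC against vehicle, 1 member was called, 2 with the length correction and block together, and 0 to 1 when a library was left out. The genes called there numbered 169 in the reported fit, 498 with DESeq2 and no edgeR filter (as for each DESeq2 value here), 431 with the replicate block, 672 without the pair of libraries that stood apart, 451 with the length trend removed, 1031 with that and the block, 351 from only the groups compared, and 27 to 299 when a library was left out. Between oleic acid + FAC and oleic acid, 1 member was called, 3 with the length correction and block, 0 from only the groups compared (BHLHE40 at 1.01, edgeR adjusted p = 0.0725), and 0 to 1 when a library was left out. The genes called numbered 314, 761 with DESeq2, 740 with the replicate block, 774 with the length trend removed, 1938 with that and the block, 19 from only the groups compared, and 55 to 449 when a library was left out. In the averaged FAC effect, 1 member was called, 3 with DESeq2, 3 with the replicate block, 2 without the libraries that stood apart, 3 with the length trend removed, 5 with that and the block, and 1 to 2 when a library was left out. The members added were NDRG1 and SLC2A1, and with the length trend and block LDHA (0.24, edgeR adjusted p = 0.00611) and PGK1 (0.21, 0.0177). The genes called numbered 1244, 2211 with the replicate block, 2143 without the libraries that stood apart, 2231 with the length trend removed, 3703 with that and the block, and 738 to 1810 when a library was left out. The cause of these differences was not tested. BHLHE40 passed on average in each of the 21 alternatives. In oleic acid + FAC against FAC, 1 gene, no member, was called with DESeq2 and 1 with the length correction and block, against 0.

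With library totals as the scale, the median of all genes moved by -0.14 in oleic acid + FAC against oleic acid and against FAC. The calls were then 32 higher and 84 lower in FAC against vehicle (65 and 104 as reported), 40 and 264 in oleic acid + FAC against oleic acid (108 and 206), and 206 and 1003 on average (465 and 779). With the length trend removed there were 1056 higher and 1175 lower calls on average.

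No member whose sign turned was past the test. Between oleic acid + FAC and oleic acid, the log2 fold change of ANKRD37 was 0.22 with limma-voom, 0.05 with the replicate block and 0.37 without the libraries that stood apart, and with library totals VEGFA was -0.05 and BNIP3 -0.08. On average, ANKRD37 was 0.08 without the libraries that stood apart, HIF1A -0.04 with library totals, and ARNT 0.01 with DESeq2 and with relative log expression scaling and 0.02 with the length correction, with or without the block. For the interaction, library totals gave SLC2A1 -0.02 and PGK1 -0.04, and removal of the length trend gave PDK1 0.03, or 0.02 with the block. Between oleic acid + FAC and FAC, library totals gave BHLHE40 -0.07, VEGFA -0.10, BNIP3 -0.02 and PGK1 -0.10. Leaving out the libraries that stood apart gave BHLHE40 -0.01, VEGFA -0.02, SLC2A1 0.03 and ANKRD37 -0.03, and removal of the length trend gave PDK1 0.02, with or without the block. In oleic acid against vehicle, ANKRD37 was -0.26 with limma-voom, -0.03 with library totals, -0.08 with the replicate block, -0.14 with the length trend removed and -0.19 with that and the block. LDHA was -0.04 with library totals and -0.05 with the length correction, with or without the block, and NDRG1 was -0.03 with library totals. Leaving out the libraries that stood apart gave PDK1 0.08, NDRG1 -0.00, ADM -0.10, ANKRD37 -0.61 and LDHA -0.11.

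With 1 library left out, ANKRD37 ranged from -0.65 to 0.06 in FAC against vehicle, from -0.42 to 0.61 in oleic acid + FAC against oleic acid and from -0.33 to 0.20 on average. In oleic acid + FAC against oleic acid, ADM ranged from -0.25 to 0.12 and BNIP3 from -0.04 to 0.17. On average HIF1A ranged from -0.04 to 0.13 and ARNT from -0.05 to 0.04. For the interaction the ranges were -0.21 to 0.83 for ANKRD37, -0.05 to 0.14 for PGK1, -0.16 to 0.12 for PDK1, -0.02 to 0.15 for SLC2A1, -0.31 to 0.09 for BHLHE40, -0.21 to 0.02 for BNIP3 and -0.17 to 0.06 for VEGFA. In oleic acid + FAC against FAC they were -0.02 to 0.09 for VEGFA, -0.10 to 0.04 for SLC2A1, -0.05 to 0.66 for ANKRD37 and -0.08 to 0.12 for PGK1. In oleic acid against vehicle they were -0.07 to 0.08 for NDRG1, -0.20 to 0.09 for PDK1, -0.10 to 0.14 for ADM, -0.60 to 0.43 for ANKRD37, -0.10 to 0.09 for LDHA, -0.02 to 0.21 for VEGFA, -0.08 to 0.02 for PGK1 and -0.02 to 0.38 for BHLHE40.

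The members' summed transcripts in place of their gene rows gave 1 member called on average, as did the gene table. Alternatives for genes outside the 10 members were added after seeing the data. Among 12 libraries, 11 deviated most like the libraries of their own replicate number in other groups, and beyond the calls given here the replicate block changed no call of a member. Depth limits ANKRD37, whose interval on average spans -0.90 to 0.67.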
